A study of Mus musculus with 8 samples.

Results

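The genes described here serve protein folding in the endoplasmic reticulum (ER), the response to ER stress and the removal of misfolded proteins from the ER. They were chosen by name as a list of 38 genes, of which 36 had a value and 2, the disulfide isomerase Pdia4 and the secreted ER factor Manf, were not named in the platform annotation and are not analysed here. The 36 measured genes stand among 19505 named genes and 22206 probe sets, and each was read from 1 probe set, that with the highest mean where a gene had several, which applied to Ddit3 alone. The tissue was ileum, about 4 cm per animal, and it came from male mice of the KKAy strain, which carry the yellow agouti allele and become obese and diabetic; transcripts were measured on Affymetrix arrays. The mice that received voglibose (1 mg/kg, by gavage, once daily for 8 weeks) and the mice that received water in its place numbered 4 each, with 1 array per mouse. All of them had eaten a high-fat diet (45% of its energy from fat) for 4 weeks before the treatment, and they were 14 weeks old per the labels, which do not say at what point. There was no lean strain and no normal diet, so each comparison is between treatments of obese mice. Voglibose inhibits the alpha-glucosidases of the brush border and delays the digestion of dietary carbohydrate in the small intestine.

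Proteins that enter the secretory pathway fold in the ER with the help of chaperones, lectins and disulfide isomerases, and those that do not fold are returned to the cytosol for degradation. When unfolded proteins build up, the membrane sensors ATF6, IRE1 (Ern1, and Ern2 in mucus-producing epithelium) and PERK (Eif2ak3) start the unfolded protein response. ATF6 is cut to release a transcription factor, IRE1 splices the Xbp1 mRNA, and PERK slows translation and favours that of Atf4. In the intestine this system is known for its part in goblet and Paneth cells, which secrete large amounts of protein. The arrays measured transcripts: the cutting of ATF6, the splicing of Xbp1 and the phosphorylation of PERK were not measured.

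ATF6 and XBP1 act through short promoter elements, and those found in the genes are shown here because known targets of these factors carry them. Promoters of RefSeq (build GRCm38.p6, 250 bases before to 50 bases after the start) were matched for 33 of the 38 genes, which leaves out Atf6, Derl1, Ern2, Hyou1 and Manf. The ER stress response element ERSE (CCAAT and CCACG separated by any 9 bases, both strands) was present in 9 of the 33 promoters (27.3%), against 0.137% of the 27025 genes in the table. Only exact matches of the fixed bases were counted, so near matches, which the Hspa5 promoter also holds, are left out. The 10 copies, 2 of them in Hsp90b1, read as follows along the strand that carries the element, with its fixed bases in capitals.
Hspa5 (chr2:34772025-34772043, + strand): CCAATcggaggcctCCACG
Calr (chr8:84847075-84847093, + strand): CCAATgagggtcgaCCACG
Hsp90b1 (chr10:86705638-86705656, - strand): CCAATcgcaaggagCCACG
Hsp90b1 (chr10:86705533-86705551, + strand): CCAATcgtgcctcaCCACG
Canx (chr11:50325800-50325818, - strand): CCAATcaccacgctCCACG
Pdia6 (chr12:17266491-17266509, + strand): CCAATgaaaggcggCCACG
Ero1lb (chr13:12565682-12565700, - strand): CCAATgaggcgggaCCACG
Dnajc3 (chr14:118937827-118937845, + strand): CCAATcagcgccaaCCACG
Creld2 (chr15:88819520-88819538, - strand): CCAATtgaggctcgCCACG
Syvn1 (chr19:6046532-6046550, + strand): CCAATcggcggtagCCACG

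A shorter form, ERSE-II (ATTGG and CCACG separated by any 1 base, both strands), was present in Herpud1 and Dnajb11, that is in 6.06% of the 33 promoters, against 0.0444% of all genes. The core of the element bound by ATF4 with C/EBP factors (TGATGNAA, both strands) was present in Asns, Atf3, Chac1, Herpud1 and Trib3, in 15.2% of the 33 promoters against 4.51% of all genes. The XBP1 element TGACGTGG (both strands) was present in 0 of the 33, against 0.714% of all genes. None of the copies of these 4 elements in the genes shared bases with another. Whole promoters are given for the main chaperone Hspa5, for Calr, whose values did not overlap between the groups, for Herpud1, which carries both kinds of element, and for Asns, with the fixed bases of the 4 elements in capitals. ERSE stands in Hspa5 and, on the other strand, in Calr, ERSE-II and the reversed ATF4 core in Herpud1, and the ATF4 core in Asns.
Hspa5 (chr2:34771840-34772139, + strand): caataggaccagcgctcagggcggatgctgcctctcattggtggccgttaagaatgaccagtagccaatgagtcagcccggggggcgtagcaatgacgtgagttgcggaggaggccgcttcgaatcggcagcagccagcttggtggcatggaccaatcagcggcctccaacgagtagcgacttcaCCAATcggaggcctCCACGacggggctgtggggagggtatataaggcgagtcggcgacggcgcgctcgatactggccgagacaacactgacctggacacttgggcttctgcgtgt
Calr (chr8:84846882-84847181, - strand): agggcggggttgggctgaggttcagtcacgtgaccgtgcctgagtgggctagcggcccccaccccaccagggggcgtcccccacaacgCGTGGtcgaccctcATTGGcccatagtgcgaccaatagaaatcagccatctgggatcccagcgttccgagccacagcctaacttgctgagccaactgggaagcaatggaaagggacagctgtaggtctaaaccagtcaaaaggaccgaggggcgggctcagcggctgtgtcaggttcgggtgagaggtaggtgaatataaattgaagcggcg
Herpud1 (chr8:94386179-94386478, + strand): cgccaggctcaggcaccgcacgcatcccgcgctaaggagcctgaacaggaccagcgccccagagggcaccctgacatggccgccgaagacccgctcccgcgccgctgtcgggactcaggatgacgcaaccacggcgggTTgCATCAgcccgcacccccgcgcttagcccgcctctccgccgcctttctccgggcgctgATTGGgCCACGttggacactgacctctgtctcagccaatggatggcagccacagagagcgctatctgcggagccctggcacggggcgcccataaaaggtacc
Asns (chr6:7693160-7693459, - strand): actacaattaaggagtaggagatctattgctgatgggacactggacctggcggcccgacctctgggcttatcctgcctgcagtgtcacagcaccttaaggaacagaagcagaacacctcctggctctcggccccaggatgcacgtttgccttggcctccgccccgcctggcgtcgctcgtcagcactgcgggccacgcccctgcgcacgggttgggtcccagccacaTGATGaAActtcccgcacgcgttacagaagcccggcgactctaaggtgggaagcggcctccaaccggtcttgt

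Before the genes themselves, 3 mice need mention. Voglibose mouse 2 carried transcripts of pancreatic acinar cells: the amylase Amy2a5 had 14.09 (log2 signal) in this mouse, 4.82 to 5.32 in the other voglibose mice and 4.41 to 4.90 in water mice, and the carboxypeptidase Cpa1 had 12.01, against 4.72 to 5.37 in the other 7 mice. Of the 10 measured acinar markers, 9 were highest in this mouse, the exception being Clps, which had 12.60 to 15.22 over all 8 mice. The log2 of the summed signal of the acinar list was 12.67 to 15.85 in voglibose mice and 13.93 to 15.23 in water mice. Fabp6, the bile acid binding protein that defines the distal ileum, had 3.54 in voglibose mouse 2 and 4.01 in water mouse 4, below the lower quartile of every array (4.05 to 4.18), so this marker of the labelled tissue stood at the level of dim probe sets there. It reached 17.50 in water mouse 2. The log2 summed signal of proximal intestine markers was highest in voglibose mouse 2 and water mouse 4 (18.91 and 18.71) and lowest in water mouse 2 (16.24). That of smooth muscle markers was highest in water mouse 2 (17.38) and lowest in water mouse 4 (14.22). Water mouse 2 was also the lowest mouse in 12 of the 36 ER genes. The part of gut position and of the gut wall in these values was not tested. Acinar cells are rich in ER chaperones, and results are therefore also given without voglibose mouse 2, and without this mouse and water mouse 4, settings of which the second was chosen after seeing the data. Array medians lay between 5.89 and 5.94. The number of arrays limits the precision.

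**Figure D1:**
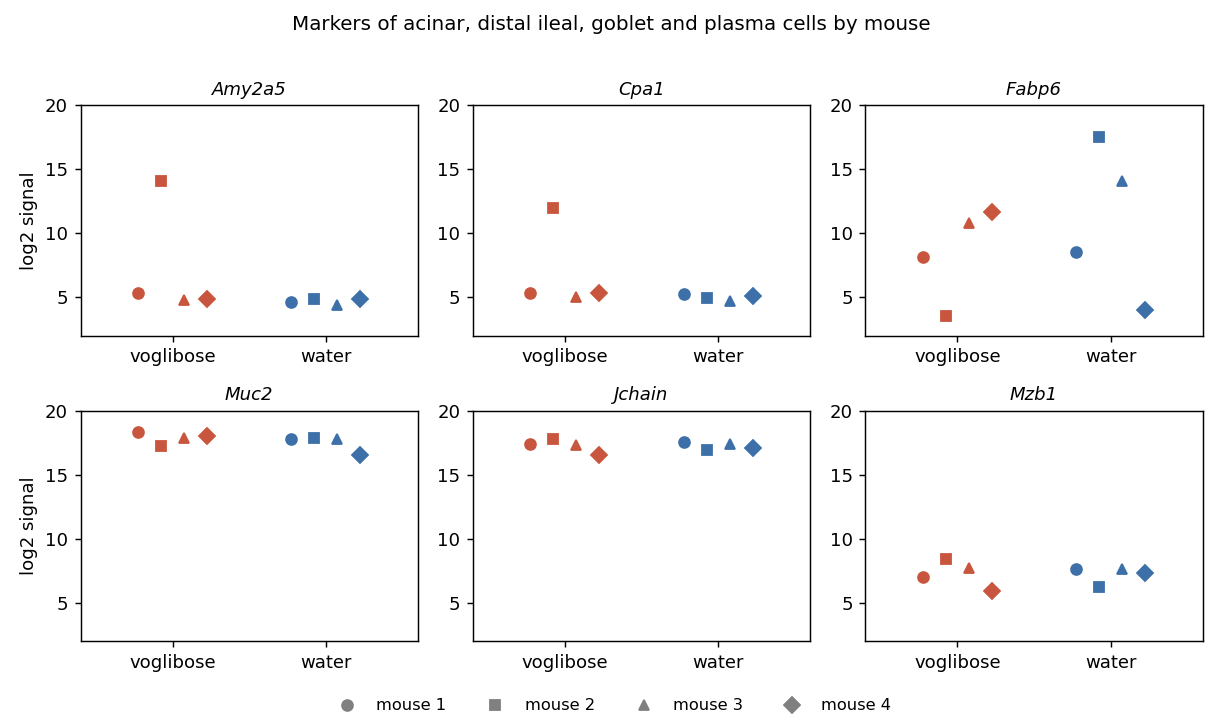
Log2 signal of acinar (Amy2a5, Cpa1), distal ileal (Fabp6), goblet cell (Muc2) and plasma cell (Jchain, Mzb1) markers, with 1 point per mouse, the marker shape giving the mouse number and all panels on the same scale. Amy2a5 and Cpa1 stand at 14.09 and 12.01 in voglibose mouse 2 and at or below 5.37 elsewhere, and Fabp6 runs from 3.54 to 17.50.

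The ER stress genes showed small differences between voglibose and water mice. None of the 36 passed the test over all probe sets (limma, Benjamini-Hochberg adjusted p from 0.662 to 0.991), where 0.0% of the array passed. At an unadjusted p under 0.05 there were 0 of 36 members, against 7.52% of all probe sets, and without voglibose mouse 2 there was 1 (Atf6), against 5.88% of all probe sets. Without this mouse and water mouse 4 there were 0 members, against 5.15%. Differences (voglibose minus water, log2) ran from -0.54 for Atf3 to 0.34 for Atf6. The median was 0.09, beside -0.01 over all probe sets. Higher means in voglibose mice were found in 22 of the 36 genes (61.1%), beside 48.7% of all probe sets and 42.6% of those above the median signal, where 33 of the 36 lie. Lower means were found in 14, beside 50.9% and 57.0%. After a further quantile normalization the count was 22 of 36 again, and the shares of the array were 51.1% and 52.8%. In bulk tissue, fewer cells of a type and less RNA per cell cannot be told apart.

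The intervals bound what these mice could have shown. For 35 of the 36 genes the 95% interval of the difference lay within 2-fold in either direction, and for 20 within 1.5-fold. The exception was Atf3, whose interval was -1.49 to 0.41. The median SD within groups was 0.19 over the 36 genes, against 0.26 over all probe sets and 0.27 over those above the median signal. The SD was lowest for Hsp90b1 (0.10), Ppp1r15a (0.11), Pdia3 (0.11) and Calr (0.11), and highest for Atf3 (0.80), Ero1lb (0.53) and Herpud1 (0.46). Some of the genes were very bright, with Hspa5, Hsp90b1 and Calr at percentiles 99.4, 99.2 and 98.6 of the mean signal. Ppp1r15a was dim, at percentile 1.7. The spread was not compared with that of probe sets of like signal.

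Grouped by branch, the genes assigned to ATF6 and XBP1 were mostly higher in voglibose mice, while fewer of those assigned to ATF4 were higher than lower. The ATF6 branch (Atf6 with chaperone and degradation genes) had 7 of 10 measured genes higher and 3 lower, with a median of 0.19. In the XBP1 branch (Xbp1, Ern1, Ern2 and targets) 9 of 12 genes were higher, with a median of 0.16. The ATF4 branch (Eif2ak3, Atf4 and targets) had 4 of 10 genes higher and 6 lower, with a median of -0.06. Targets of ATF6 and XBP1 overlap, so the assignment of shared targets is a choice, and Canx, Pdia3, P4hb and Ero1lb were put in no branch. The difference between branches was not tested. Per mouse, the median deviation of the ATF6 branch from the gene means lay between -0.04 and 0.16 in voglibose mice and between -0.11 and 0.05 in water mice, that of the XBP1 branch between -0.04 and 0.12 against -0.23 and 0.05, and that of the ATF4 branch between -0.11 and 0.09 against -0.17 and 0.15, so the groups overlapped in each branch. Water mouse 2 had the lowest value in the XBP1 and ATF4 branches, and without it the median difference was 0.075 for the ATF6 branch, 0.079 for the XBP1 branch and -0.147 for the ATF4 branch. The ATF6 median was also 0.118 without voglibose mouse 1 and 0.278 without voglibose mouse 4, and over all 8 mice left out in turn the XBP1 median ran from 0.079 to 0.214. The ATF4 median ran from -0.147 to 0.015, with -0.124 without voglibose mouse 2 and a positive value without voglibose mouse 3. With dim probe sets left out, among them Chac1, Sesn2 and Ppp1r15a, it was -0.14 over all mice. Mice were not left out in turn in that setting, and this branch has no settled sign.

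**Figure D2:**
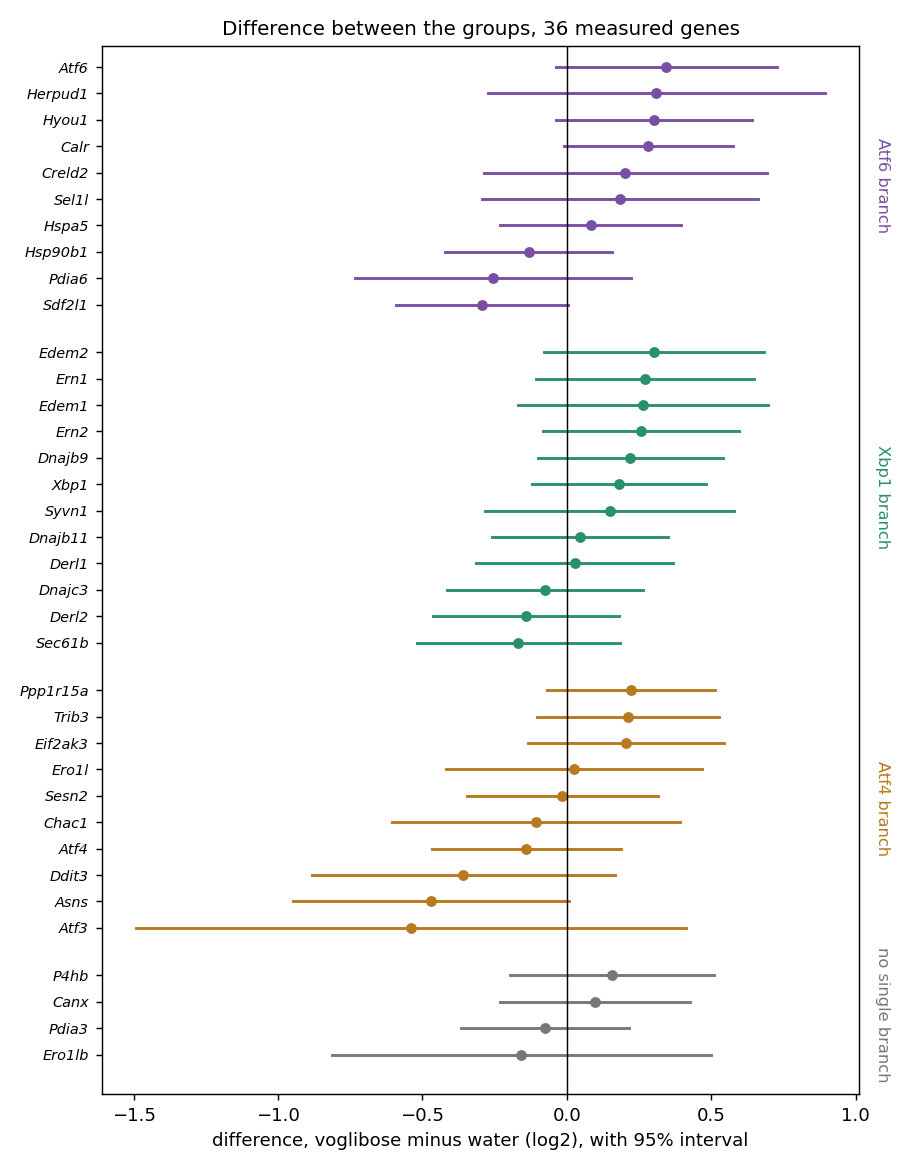
Difference of each of the 36 measured genes (voglibose minus water, log2, point) with its 95% interval (line), grouped by branch and sorted within it. All 36 intervals include 0, and the points run from -0.54 (Atf3) to 0.34 (Atf6).

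The sensors stood higher in voglibose mice, each within the overlap of the groups. Atf6, the membrane-bound transcription factor of the first branch, had 12.20, 12.02, 12.37 and 12.37 in voglibose mice 1 to 4, against 12.04, 12.17, 11.89 and 11.48 in water mice 1 to 4 (log2 signal). The highest values were those of voglibose mice 3 and 4 and the lowest that of water mouse 4, and the groups overlapped. The difference was 0.34 ± 0.17 (SE; 95% interval -0.04 to 0.73; adjusted p = 0.684), and it ran from 0.21 to 0.44 when 1 mouse at a time was left out, the lowest value without water mouse 4.

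Ern1, which encodes the IRE1 sensor of most tissues, had 8.19, 8.25, 7.84 and 7.63 in voglibose mice 1 to 4, against 7.53, 7.87, 7.64 and 7.79 in water mice 1 to 4. Voglibose mice 1 and 2 stood above all others, and mice 3 and 4 of that group within the range of water mice. The difference was 0.27 ± 0.17, and 0.18 without voglibose mouse 2. Ern2, the IRE1 of mucus-producing cells, had 8.05, 7.78, 7.59 and 7.95 in voglibose mice 1 to 4, against 7.66, 7.48, 7.78 and 7.42 in water mice 1 to 4. It was highest in voglibose mouse 1 and lowest in water mouse 4, the mice with the highest and the lowest signal of the mucin Muc2 (18.37 and 16.55). Its difference was 0.26 ± 0.15 (adjusted p = 0.732). The goblet cell list as a whole had 3 of 11 markers higher. This count was 6 of 11 without voglibose mouse 2, and 3 of 11 without this mouse and water mouse 4. Its log2 summed signal was 19.59 to 20.29 in voglibose mice and 19.57 to 20.35 in water mice. Fcgbp was, like Muc2, highest in voglibose mouse 1 and lowest in water mouse 4. Clca1 (16.63) and Spink4 (16.47) were instead lowest of all mice in voglibose mouse 1. Water mouse 4 was the lowest mouse in 3 of the 11 markers. The Paneth cell list had 20.19 to 20.47 in voglibose mice and 20.29 to 20.61 in water mice. The part of these cells in the Ern2 values was not tested.

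Eif2ak3, the PERK kinase, had 9.90, 9.45, 9.80 and 9.62 in voglibose mice 1 to 4, against 9.49, 9.71, 9.32 and 9.43 in water mice 1 to 4. Voglibose mice 1 and 3 were highest, water mouse 2 came next, and the groups overlapped. The difference was 0.20 ± 0.15 (adjusted p = 0.797). Xbp1, whose spliced mRNA encodes the active factor of the IRE1 branch, had 15.43, 15.58, 15.47 and 15.52 in voglibose mice 1 to 4, against 15.30, 15.10, 15.40 and 15.48 in water mice 1 to 4. Water mouse 2 was lowest, and water mouse 4 stood within the narrow range of the voglibose mice. The difference was 0.18 ± 0.14, and the file gives no value per splice form.

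The transcription factors downstream of PERK had the opposite sign. Atf4 had 13.33, 13.79, 13.54 and 13.50 in voglibose mice 1 to 4, against 13.72, 13.47, 13.73 and 13.80 in water mice 1 to 4. Voglibose mouse 1 was lowest and water mouse 4 highest, voglibose mouse 2 was nearly as high, and the difference was -0.14 ± 0.15. Ddit3, which encodes the pro-apoptotic factor CHOP, had 9.63, 10.26, 9.55 and 9.87 in voglibose mice 1 to 4, against 10.33, 9.50, 10.48 and 10.43 in water mice 1 to 4. Of the water mice 3 stood above all voglibose mice and the other, water mouse 2, was the lowest of all 8. The difference was -0.36 ± 0.24 (95% interval -0.88 to 0.17) and -0.59 without water mouse 2. A second, dimmer probe set of Ddit3 differed by -0.12 ± 0.20. Atf3, an early stress factor, had 10.62, 8.68, 8.26 and 9.88 in voglibose mice 1 to 4, against 9.85, 10.22, 10.04 and 9.49 in water mice 1 to 4. The voglibose mice held both the highest value (mouse 1) and the lowest ones (mice 2 and 3), while water mice ran from 9.49 to 10.22. Its difference, -0.54 ± 0.43, was -0.17 without voglibose mouse 3 and -0.96 without voglibose mouse 1.

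**Figure D3:**
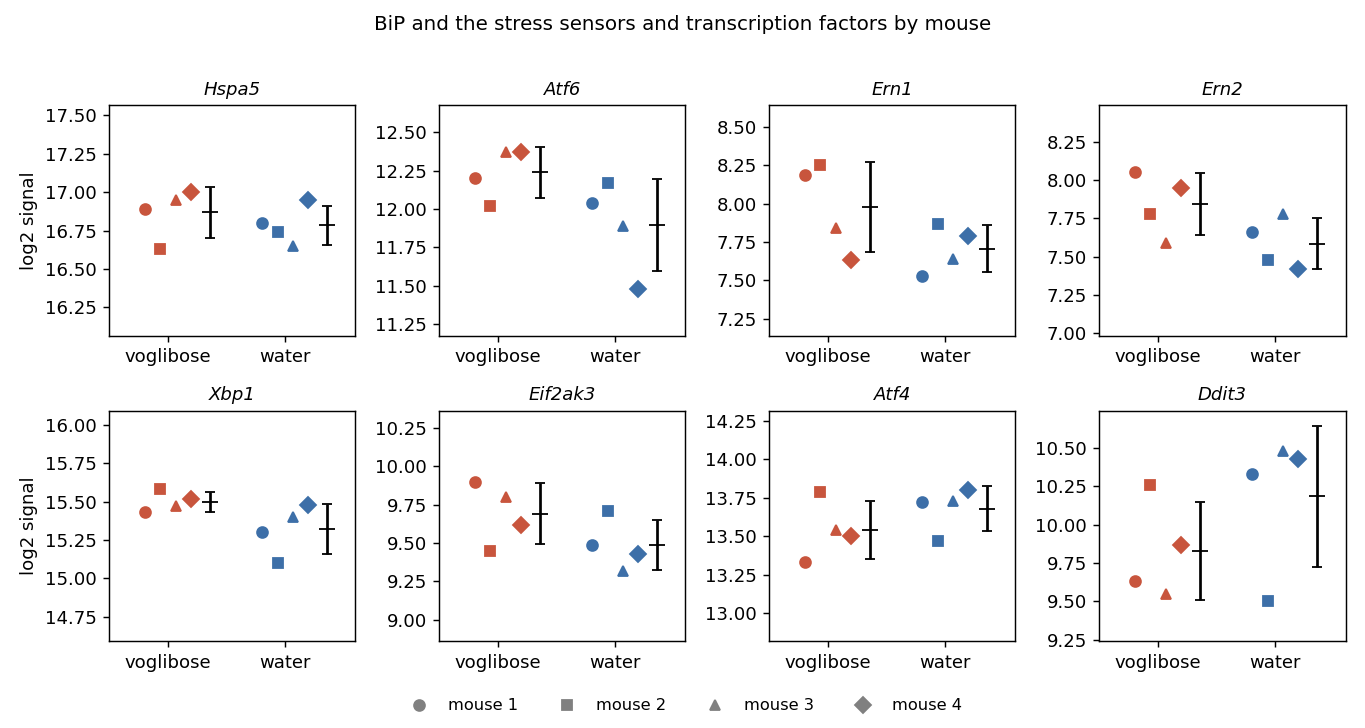
Log2 signal of the chaperone Hspa5, the sensors Atf6, Ern1, Ern2 and Eif2ak3 and the transcription factors Xbp1, Atf4 and Ddit3, with 1 point per mouse, the marker shape giving the mouse number, and the mean ± SD (n = 4) beside each group. Every panel spans the same range of log2 units, and the groups overlap in each.

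Chaperones differed in both directions, 5 of 8 measured genes higher and 3 lower. Hspa5 encodes BiP, the main chaperone of the ER and the most used readout of the response. It had 16.89, 16.63, 16.95 and 17.00 in voglibose mice 1 to 4, against 16.80, 16.74, 16.65 and 16.95 in water mice 1 to 4. Voglibose mouse 4 was highest, followed by voglibose mouse 3 and water mouse 4, voglibose mouse 2 and water mouse 3 were lowest, and the groups overlapped over most of their range. The difference was 0.08 ± 0.14 (95% interval -0.23 to 0.40; adjusted p = 0.925), and 0.16 without voglibose mouse 2. Hsp90b1, the ER member of the HSP90 family, had 16.34, 16.44, 16.58 and 16.43 in voglibose mice 1 to 4, against 16.70, 16.61, 16.46 and 16.55 in water mice 1 to 4. Its difference was -0.13 ± 0.13, opposite in sign to that of Hspa5, and its values overlapped between the groups.

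Hyou1, a large HSP70-type chaperone that also acts as exchange factor of BiP, had 12.37, 12.00, 12.04 and 11.81 in voglibose mice 1 to 4, against 11.89, 11.81, 11.68 and 11.63 in water mice 1 to 4. Voglibose mice 1 to 3 stood above all water mice, and voglibose mouse 4 lay within them, which gave a difference of 0.30 ± 0.15 (95% interval -0.04 to 0.64; adjusted p = 0.686). Sdf2l1, a partner of the BiP co-chaperone Dnajb11, had 7.70, 7.66, 7.88 and 7.64 in voglibose mice 1 to 4, against 7.98, 7.86, 8.16 and 8.05 in water mice 1 to 4. The groups overlapped by 1 mouse each, with 7.88 in voglibose mouse 3 and 7.86 in water mouse 2. Its difference of -0.29 ± 0.14 (95% interval -0.59 to 0.01) had the smallest p of the 36 genes (unadjusted p = 0.0535; adjusted p = 0.662).

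Dnajb9, a co-chaperone and a classical XBP1 target, had 13.82, 13.82, 13.82 and 13.45 in voglibose mice 1 to 4, against 13.45, 13.39, 13.51 and 13.68 in water mice 1 to 4. In 3 voglibose mice it was identical to 2 decimals and above every water mouse, while voglibose mouse 4 lay among the water mice, and the difference was 0.22 ± 0.15. The other co-chaperones Dnajb11 and Dnajc3 differed by 0.04 ± 0.14 and -0.07 ± 0.15, signs that turned without voglibose mouse 3 (-0.036) and without water mouse 1 (0.026). Creld2, a stress-induced ER protein, differed by 0.20 ± 0.22.

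Among lectin chaperones and disulfide enzymes 4 of 7 measured genes were higher. Calr, the soluble lectin chaperone calreticulin, had 16.09, 15.87, 15.82 and 16.03 in voglibose mice 1 to 4, against 15.78, 15.69, 15.64 and 15.57 in water mice 1 to 4. All 4 voglibose mice stood above all 4 water mice, the smallest gap being 15.82 against 15.78. The difference was 0.28 ± 0.13 (95% interval -0.01 to 0.58; adjusted p = 0.664), and 0.31 without voglibose mouse 2. Calr and Ppp1r15a were the 2 members of 36 whose groups did not overlap, beside 4.35% of all probe sets (1.82% with all voglibose mice higher and 2.53% with all lower). Canx, the membrane-bound counterpart of calreticulin, had 15.10, 14.90, 15.40 and 15.32 in voglibose mice 1 to 4, against 15.19, 15.06, 14.99 and 15.09 in water mice 1 to 4. Its values overlapped, and its difference was 0.10 ± 0.15.

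Pdia6, a disulfide isomerase, had 12.77, 13.12, 13.87 and 13.56 in voglibose mice 1 to 4, against 13.55, 13.72, 13.55 and 13.52 in water mice 1 to 4. Voglibose mice 1 and 2 were lowest, voglibose mouse 3 was highest and voglibose mouse 4 stood among the water mice, which lay within 13.52 to 13.72. The difference was -0.26 ± 0.22, and -0.068 without voglibose mouse 1. P4hb, the most studied disulfide isomerase, had 16.00, 16.03, 15.76 and 15.68 in voglibose mice 1 to 4, against 15.63, 15.42, 15.87 and 15.92 in water mice 1 to 4. Voglibose mice 1 and 2 were highest and water mouse 2 lowest, with a difference of 0.16 ± 0.16. Pdia3, which works with the lectin chaperones, differed by -0.07 ± 0.13. The oxidase genes Ero1l and Ero1lb, which recharge the isomerases and are now named Ero1a and Ero1b, differed by 0.03 ± 0.20 and -0.16 ± 0.30. Voglibose mouse 2 was the highest of its group in both (11.47 and 9.02), and without it their differences were -0.17 and -0.34.

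Of the genes of ER-associated degradation and the translocon, 6 of 8 were higher in voglibose mice, beside 48.7% of all probe sets. In the further lists given below, 6 of 16 other degradation genes and 6 of 19 genes of the translocon and signal peptidase were higher. Edem2, a mannosidase-like factor that marks glycoproteins for disposal, had 10.95, 10.94, 10.93 and 10.42 in voglibose mice 1 to 4, against 10.51, 10.24, 10.77 and 10.51 in water mice 1 to 4. Voglibose mice 1 to 3 were above all water mice and voglibose mouse 4 was among the lowest, with a difference of 0.30 ± 0.17 (95% interval -0.08 to 0.68; adjusted p = 0.727). Edem1, of the same family, had 12.62, 12.79, 12.27 and 12.12 in voglibose mice 1 to 4, against 12.37, 12.03, 12.48 and 11.86 in water mice 1 to 4. Voglibose mice 1 and 2 were highest and water mouse 4 lowest. The difference was 0.27 ± 0.20, 0.15 without voglibose mouse 2 and 0.043 without this mouse and water mouse 4.

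Herpud1, a scaffold of the degradation complex with both kinds of promoter element, had 14.23, 14.03, 13.23 and 13.64 in voglibose mice 1 to 4, against 13.67, 12.79, 13.59 and 13.84 in water mice 1 to 4. Its spread was among the widest of the set, from voglibose mouse 1 at the top to water mouse 2 at the bottom, and its difference was 0.31 ± 0.27 and 0.082 without water mouse 2. The ubiquitin ligase Syvn1 and its partner Sel1l differed by 0.15 ± 0.20 and 0.18 ± 0.22, and Sel1l was highest in voglibose mouse 1 (11.30) and lowest in voglibose mouse 4 (10.22). Leaving out 1 mouse gave 0.01 (without water mouse 2) to 0.293 (without water mouse 3) for Syvn1 and 0.038 (without voglibose mouse 1) to 0.398 (without voglibose mouse 4) for Sel1l. The channel candidates Derl1 and Derl2 differed by 0.03 ± 0.15 and -0.14 ± 0.15.

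Sec61b, a small subunit of the translocon through which proteins enter the ER, had 7.59, 7.41, 7.87 and 7.86 in voglibose mice 1 to 4, against 7.70, 7.80, 8.10 and 7.80 in water mice 1 to 4. Voglibose mouse 2 was lowest and water mouse 3 highest, and the difference was -0.17 ± 0.16. Plasma cells are a further secretory cell type of the ileum, and 9 of their markers were measured. Voglibose mouse 4 was the lowest of the 8 mice in 3 of them and water mouse 2 in 4. The immunoglobulin joining chain Jchain and Mzb1 were lowest in voglibose mouse 4 (16.53 and 5.95) and next lowest in water mouse 2 (16.95 and 6.26), whereas Fkbp11 was highest in water mouse 2 (6.99) and, among voglibose mice, in mouse 4 (6.53). Voglibose mouse 4 and water mouse 2 also had the lowest values of Edem2 (10.42 and 10.24). The plasma cell list had 8 of 9 markers higher in voglibose mice, but 3 of 9 without voglibose mouse 2 and 2 of 9 without this mouse and water mouse 4, with a log2 summed signal of 16.71 to 17.89, against 17.08 to 17.68 in water mice, and its part in the Edem2 values was not tested.

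The outputs of ATF4 gave 2 of 5 genes higher and 3 lower. Asns, the asparagine synthetase whose promoter is shown above, had 13.37, 13.28, 14.08 and 14.06 in voglibose mice 1 to 4, against 14.50, 14.05, 14.17 and 13.95 in water mice 1 to 4. Voglibose mice 1 and 2 were well below all others, voglibose mice 3 and 4 lay within the range of the water mice, and water mouse 1 was highest. The difference was -0.47 ± 0.22 (95% interval -0.95 to 0.01; adjusted p = 0.663), and -0.33 without voglibose mouse 2. Trib3, a pseudokinase induced by ATF4 and CHOP, had 6.44, 6.58, 6.23 and 6.61 in voglibose mice 1 to 4, against 6.37, 6.09, 6.25 and 6.30 in water mice 1 to 4. Its difference of 0.21 ± 0.14 had the opposite sign to that of Asns, and voglibose mouse 3 lay among the water mice.

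Ppp1r15a, the phosphatase subunit GADD34 that ends the PERK signal, had 3.04, 2.90, 3.19 and 2.89 in voglibose mice 1 to 4, against 2.72, 2.84, 2.79 and 2.78 in water mice 1 to 4. The groups did not overlap, but all values lay below the lower quartile of the arrays, as those of a dim probe set do. Its difference was 0.22 ± 0.13 (adjusted p = 0.731). Chac1, a glutathione-degrading enzyme, had 4.08, 4.05, 3.82 and 4.84 in voglibose mice 1 to 4, against 4.61, 3.99, 4.44 and 4.18 in water mice 1 to 4. Voglibose mouse 4 was highest and voglibose mouse 3 lowest, with a difference of -0.11 ± 0.23. Sesn2, a stress-induced regulator of growth signalling, had group means of 3.11 and 3.13 in voglibose and water mice and was likewise dim.

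**Figure D4:**
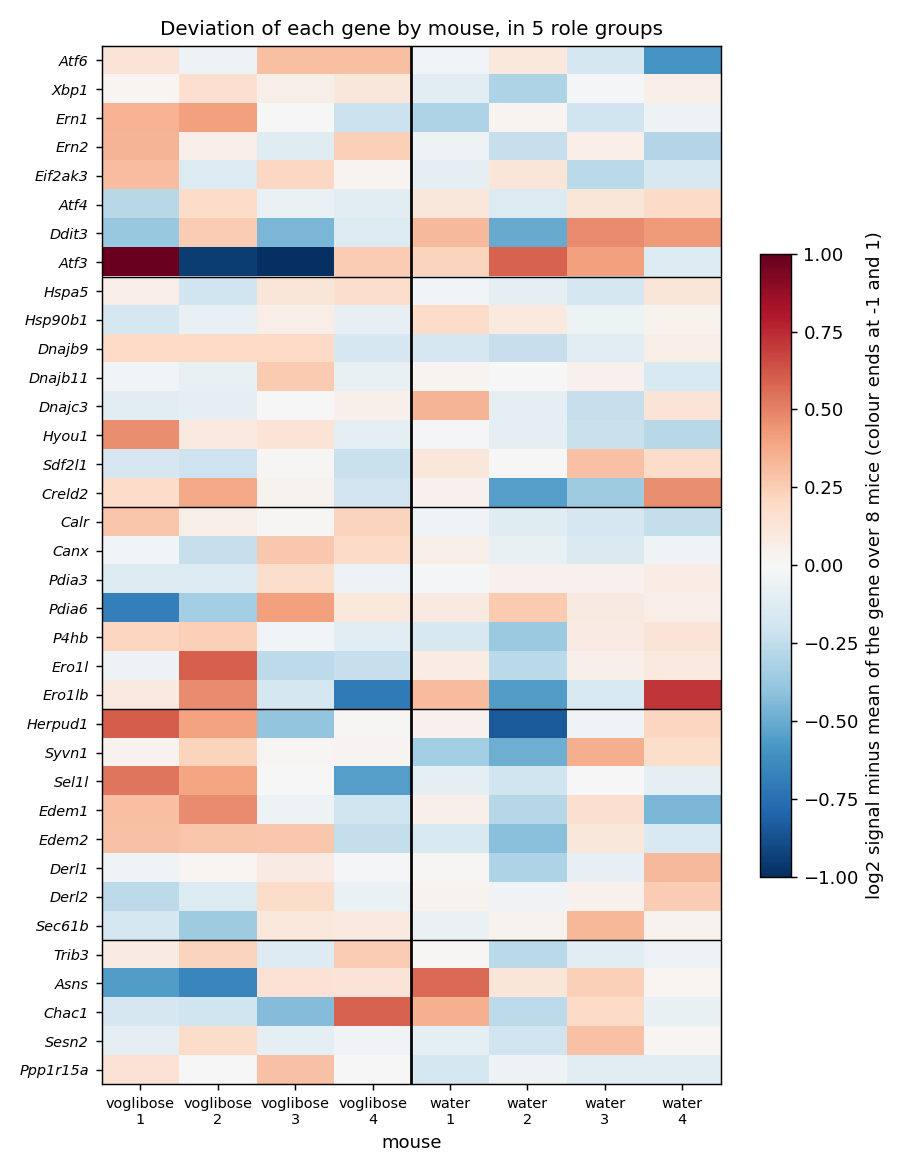
Log2 signal of each gene minus its mean over the 8 mice, with voglibose mice left of the line and water mice right of it, and genes in 5 role groups from the sensors and transcription factors at the top to the outputs of ATF4 at the bottom. Single mice stand out within the groups: Asns is low in voglibose mice 1 and 2 (13.37 and 13.28) and Herpud1 in water mouse 2 (12.79).

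Of the 9 genes with ERSE in the promoter, 5 were higher and 4 lower in voglibose mice, from -0.26 for Pdia6 to 0.28 for Calr, with a median of 0.08. Hsp90b1, with 2 exact copies, differed by -0.13 ± 0.13, and Hspa5, with 1 exact copy, by 0.08 ± 0.14. Near matches were not counted, so these are not full counts of the elements in either promoter. Both genes with ERSE-II were higher, Herpud1 by 0.31 ± 0.27 and Dnajb11 by 0.04 ± 0.14. Of the 5 genes with the ATF4 core, 2 were higher (Herpud1 and Trib3) and 3 lower (Atf3, Asns and Chac1).

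Across the 8 mice, genes of 1 branch did not vary together to an extent that passed a test. Of 10 pairs examined, the closest were Xbp1 with its target Dnajb9 (Pearson r = 0.641, exact permutation p = 0.0714, adjusted p = 0.43; Spearman rho = 0.552, exact permutation p = 0.161, adjusted p = 0.804) and Ern2 with Muc2 (r = 0.635, exact permutation p = 0.0859, adjusted p = 0.43; rho = 0.563, exact permutation p = 0.154, adjusted p = 0.804). Without the 2 mice farthest from the median of the first gene, which also narrows the range of that gene, r was 0.186 for Xbp1 and Dnajb9 and -0.039 for Ern2 and Muc2. Leaving out 1 mouse at a time gave 0.483 to 0.839 and 0.395 to 0.778. For Hspa5 with Hsp90b1 r was -0.019, for Atf4 with Asns 0.188 and for Ddit3 with Atf3 -0.05.

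Further genes of the pathway, in lists drawn up beside the 38, gave a wider view. None of them passed over all probe sets. Of 19 genes of the translocon, signal recognition and signal peptidase, 5 had an unadjusted p under 0.05, 4 lower and 1 higher, where 4.44% of all probe sets were lower and 3.08% higher at this p (3.59% and 3.52% after a further quantile normalization). The median difference of this list was -0.15 with 6 of 19 genes higher, and -0.074 with 8 higher after that normalization. The signal peptidase subunits Spcs1 and Sec11c differed by -0.44 ± 0.15 and -0.40 ± 0.16, and the signal recognition particle subunit Srp9 by -0.38 ± 0.15 (adjusted p = 0.652, 0.658 and 0.658). In these 3 genes the group means were 13.72 and 14.16, 12.25 and 12.65, and 9.01 and 9.38 in voglibose and water mice. All 3 were lowest in voglibose mouse 1, which was the lowest of the 8 mice in 11 of the 19 genes of this list, and without it their differences were -0.36, -0.32 and -0.29. Over all probe sets, the count at an unadjusted p under 0.05 was 969 without this mouse, against 1671 with it.

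Other targets of ATF4 were higher in 5 of 25 genes and lower in 19, beside 48.7% and 50.9% of all probe sets. Above the median signal these shares of the array were 42.6% and 57.0%. The median difference of these targets was -0.17. Of them, 2 had an unadjusted p under 0.05, beside 7.52% of all probe sets. These were the translation repressor Eif4ebp1 (-0.51 ± 0.20) and the cysteine-producing enzyme Cth (-0.72 ± 0.29), followed by the folate enzyme Mthfd2 (-0.41 ± 0.20). Of 19 other stress regulators 3 had an unadjusted p under 0.05, all lower, where 4.44% of all probe sets were lower at this p. They were the adaptor Nck1 (-0.43 ± 0.15), the ER-linked caspase gene Casp12 (-0.51 ± 0.19) and the double-stranded RNA kinase Eif2ak2 (-0.64 ± 0.24), an interferon-induced gene. The adjusted p of these 6 genes ran from 0.652 to 0.678. Voglibose mouse 1 was the lowest mouse in 5 of them, the exception being Mthfd2, and without it Cth differed by -0.46, Casp12 by -0.35 and Eif2ak2 by -0.50. Of 9 genes named from the pathway lists with an unadjusted p under 0.05, 2 kept it without this mouse, Spcs1 and Nck1. Other ER folding enzymes were higher in 5 of 20 genes (7 after a further quantile normalization), with 0 at an unadjusted p under 0.05 and Dnajc10, Fkbp2 and Tmx1 at -0.36 ± 0.19, -0.56 ± 0.30 and -0.32 ± 0.19.

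Other degradation genes were higher in 6 of 16 genes and in 11 after a further quantile normalization, so their direction depends on the scaling, and 0 had an unadjusted p under 0.05. Rnf139, Erlec1 and Rnf5 differed by -0.30 ± 0.15, 0.26 ± 0.15 and -0.14 ± 0.17. Heat shock proteins of the cytosol and mitochondria, which serve as a contrast to those of the ER, were higher in 3 of 11 genes. The share over all probe sets was 48.7%, and the median of this list was -0.08. Without voglibose mouse 2 the count was 4 of 11. Without this mouse and water mouse 4 it was 6 of 11 with a median of 0.03, so the direction depends on these mice. Over all mice 1 gene had an unadjusted p under 0.05, beside 7.52% of all probe sets. It was the cytosolic chaperone Hsp90aa1 (-0.42 ± 0.19, and -0.30 without voglibose mouse 1). Dnajb1 and Hspe1 differed by -0.34 ± 0.16 and -0.23 ± 0.20.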

How the data were processed

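The authors deposited 1 log2 signal for each probe set and array. Per the submitters' processing notes, RMA and the Transcriptome Analysis Console were used, without versions. The log2 scale was read from the values (2.09 to 19.55), and nothing on its settings or on a genome build is given in the sources used here. Normalization across arrays hides changes in total RNA, and dim or very bright probe sets understate differences. All 22206 probe sets were tested with R 4.3.3 and limma 3.58.1 (a linear model with moderated variances, 2-sided, Benjamini-Hochberg over all probe sets, threshold 0.05), with 11.1 total degrees of freedom and 4 mice per group, taken from the labels, which give no batch. The p-values set each difference against the spread between these mice. That spread was moderated over all probe sets, with 5.09 of the 11.1 degrees of freedom from the prior. The procedure was tested on simulated data. Of the probe sets, 19572 had 1 gene symbol, 0 several and 2634 none, and older symbols were matched through gene identifiers in RefSeq (GRCm38.p6).

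Genes given with the value of each mouse are the sensors and main factors of the branches and the 4 genes with the smallest p in each role group, and the other pathway genes named are the 3 with the smallest p in each list, apart from Derl3, which was chosen after its values were seen. Genes, lists and branches were chosen with earlier results of these data known, so no p is given for a list. The relations between genes used exact permutation over all pairings, adjusted over 10 pairs. Alternatives were 2 further scalings, a filter on dim probe sets, 3 other variance or weight settings, the mean of all probe sets of a gene, the replicate number as a block, and leaving out mice. Figures were drawn with matplotlib 3.10.9.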

Additional observations from a re-analysis of the deposited data

Results flagged for a closer look

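In 11 of 120 groups of 4 mice examined, 1 mouse lay far from the other 3, where chance alone gives about 1 in 20. Among the ER genes, Dnajb9 was 13.45 in voglibose mouse 4, the others all being 13.82, and Edem2 was 10.42 in the same mouse, against 10.93 to 10.95 in its group. Dnajb11 was 9.66 in voglibose mouse 3, against 9.32 to 9.37, and Syvn1 was 7.04 in voglibose mouse 2, against 6.83 to 6.85. In the water group, mouse 2 stood apart in 3 genes: Ddit3 was 9.50, against 10.33 to 10.48 in the other 3 mice, Ero1l was 10.60, against 10.92 to 10.97, and Pdia6 was 13.72, against 13.52 to 13.55. Tmx1, a membrane thioredoxin of the ER, was 12.44 in water mouse 4, against 11.73 to 11.82. Of the cell type markers, Muc2 was 16.55 in water mouse 4, against 17.79 to 17.91, while Cpa1 (12.01, others 5.01 to 5.37) and Amy2a5 (14.09, others 4.82 to 5.32) stood apart in voglibose mouse 2.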

How the results depend on the processing

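No member passed over all probe sets in any of the 17 alternatives (smallest adjusted p = 0.541, Asns without voglibose mouse 3). The count of members at an unadjusted p under 0.05, 0 as reported, was 2 after a further quantile normalization, 2 with trend and robust eBayes, 3 without moderation of the variance, 2 with array weights and 0 to 5 when 1 mouse was left out, with the 5 reached without voglibose mouse 4. The count of probe sets at that p (1671, also at a fold over 1.2) was 988 with dim probe sets left out and 969 to 1906 when 1 mouse was left out, with the 969 reached without voglibose mouse 1. As reported, this was 7.52% of all probe sets, beside 0 of 36 members. With quantile normalization, trend and robust eBayes, no moderation or array weights, it lay between 1529 and 1671 of 22206 probe sets. The 5 of 36 members without voglibose mouse 4 stand beside at most 1906 of 22206 probe sets. Whether the share of members differed from that of all probe sets was not tested in any setting. With the replicate block 0 members and 1529 probe sets had an unadjusted p under 0.05, and the differences are the same by construction. The deviations of same-numbered mice from their group means correlated at -0.324 to 0.015, and those of other pairs at -0.282 to 0.396. No pairing by number was seen, but this check cannot exclude one, because larger differences between the few mice could hide it. The ATF6 branch median ran from 0.075 to 0.278 when 1 mouse was left out, and the ATF4 branch median from -0.147 to 0.015. With dim probe sets left out the ATF4 branch median was -0.14.

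Signs turned in 7 genes and 6 relations, and in the ATF4 branch median without voglibose mouse 3. Ero1l was -0.02 with array weights and -0.133 without water mouse 4 and voglibose mouse 2. Leaving out 1 mouse gave -0.17 to 0.117 for Ero1l, -0.036 to 0.078 for Dnajb11, -0.164 to 0.026 for Dnajc3, -0.322 to 0.018 for Chac1, -0.083 to 0.08 for Sesn2, -0.071 to 0.139 for Derl1 and -0.369 to 0.054 for Ero1lb. The relation of Hspa5 and Hsp90b1 was 0.224 with values centred on their group mean and 0.034 after quantile normalization (-0.2 to 0.149 without 1 mouse). Centring gave -0.151 for Hspa5 and Hyou1 (-0.104 to 0.33), 0.087 for Hspa5 and Sdf2l1 (-0.6 to 0.154) and -0.108 for Atf4 and Asns (-0.277 to 0.661, and -0.047 after quantile normalization). Without 1 mouse, Ddit3 and Atf3 gave -0.563 to 0.168 and Hspa5 and Asns -0.302 to 0.336. The cause was not tested. With 4 mice per group the median SE of the 36 differences was 0.15.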

Other observations

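Derl3, a degradation factor enriched in secretory cells that is not among the 38 genes and was chosen after its values were seen, varied widely between mice within both groups. It had 6.71, 7.26, 7.07 and 5.55 in voglibose mice 1 to 4, against 7.02, 5.74, 6.98 and 6.69 in water mice 1 to 4 (log2 signal). The lowest values were those of voglibose mouse 4 and water mouse 2, where Mzb1 was also lowest (5.95 and 6.26). Other plasma cell markers went the other way in water mouse 2: Fkbp11 was highest of all mice there (6.99), and Prdm1 highest of the water mice (6.72). The part of plasma cells in the Derl3 values was not tested. The difference of Derl3 between the groups was 0.04 ± 0.38 (SE).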
